A study of Mus musculus with 18 samples.

Results

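The glycolysis and lactate genes are the enzymes that break glucose down to lactate in the cytosol. With them come the glucose and lactate transporters and the kinases that switch off pyruvate dehydrogenase in the mitochondrion. They were chosen by name: of 36 listed symbols, 35 were found among the 23234 symbols of the deposited RNA table, since the pyruvate kinase gene Pkm is listed there as Pkm2 only. A mean of at least 0.5 scaled FPKM over the 10 libraries, the minimum for a test, was reached by 31 of the 35. FPKM are fragment counts scaled to transcript length and to the depth of the library, and here they were divided by a size factor per library. The series concerns mouse CD8 T cells that lack G9a, the enzyme made from Ehmt2 that methylates lysine 9 of histone H3. RNA came from C57BL/6 T cells of spleen and lymph nodes after 4 weeks of expansion in a lymphocyte-poor host, a condition that all 3 RNA groups share. The groups are G9a knockout cells with both CD4 and CD8 (KO DP, n = 4), G9a knockout cells with CD8 alone (KO SP, n = 2) and CD8-alone cells of the wild type (WT SP, n = 4). Trimethylation of H3 lysine 9 (H3K9me3) was mapped in Ehmt2+/+ and Ehmt2-/- CD8 T cells cultured with antibodies to CD3 and CD28, with 2 libraries per genotype. The labels leave out the Cre driver, the deleted exons and the ages, and they do not say whether the libraries of each group are separate mice. The spread that the p-values rest on may therefore be technical.

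Glycolysis takes glucose in through the transporters Glut1 (Slc2a1) and Glut3 (Slc2a3), traps and splits it, and harvests ATP and NADH while making pyruvate. Lactate dehydrogenase then turns pyruvate into lactate, which the monocarboxylate transporters Mct1 (Slc16a1) and Mct4 (Slc16a3) carry across the membrane. Alternatively, pyruvate dehydrogenase inside the mitochondrion passes pyruvate on to oxidation, unless a pyruvate dehydrogenase kinase (Pdk1 to Pdk4) switches it off. Activated and dividing T cells are known for running glycolysis to lactate at a high rate even in oxygen, with Myc and Hif1a as the best known transcriptional drivers, whereas resting and memory T cells rely more on oxidation. Most steps have several isozymes encoded by separate genes, and many glycolytic promoters hold the core of the hypoxia response element, ACGTG, or the E-box CACGTG that Myc and related factors bind.

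The labels were checked on the genes they name. Cd4 was at 106 to 152 scaled FPKM in the 4 KO DP libraries and at 0.131 to 0.464 in the other 6. Cd8b1 was at 531 to 773 in KO DP, 1161 and 1207 in KO SP and 1058 to 1333 in WT SP. Ehmt2 was at 17.9, 20.2, 17.1 and 15.6 in KO DP, 10.3 and 11.8 in KO SP, against 17.0, 38.1, 23.8 and 19.6 in WT SP, and did not pass the test in any comparison. Its whole-gene level cannot show the loss of some exons, so it does not check the knockout. The knockout libraries also held Xist at 1.54 to 5.54 and Ddx3y at 0.0511 to 0.464, against 0.0118 to 0.0318 and 19.3 to 25.4 in WT SP, so genotype and the sex of the source cells cannot be told apart, and of the members Pgk1, Pfkfb1 and Pdk3 lie on the X chromosome. KO DP replicates 3 and 4 stood apart, with size factors of 0.744 and 0.468 against 1.07 to 1.22 elsewhere and a mean of 0.150 and 0.229 FPKM over 1096 olfactory receptor genes, whose known use is in the nose, against at most 0.0213 elsewhere. Titles of the RNA samples fall in the number ranges 34 to 37 (KO DP and WT SP replicates 1 and 2) and 738 to 741 (the others), whose meaning the labels do not give. FPKM hold no read counts, so no counting error can be given; ratios of low values put the relative depth of the libraries at 0.664 to 1.30 times that of WT SP replicate 1.

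The promoters of 4 members on which the comparisons turn are shown because 3 of these genes, Pdk1, Pdk2 and Slc16a1, were lower in KO DP than in both other groups while Ldhb was higher. They are RefSeq promoters of GRCm38.p6, from 250 bases before to 50 after the start, each written 5′ to 3′ on the gene's strand in lower case, with every ACGTG on either strand in capitals. The window of Pdk1 is chr2:71872974-71873273 on the plus strand, that of Pdk2 chr11:95041322-95041621 on the minus strand, that of Slc16a1 chr3:104638414-104638713 on the plus strand and that of Ldhb chr6:142507908-142508207 on the minus strand.
Pdk1: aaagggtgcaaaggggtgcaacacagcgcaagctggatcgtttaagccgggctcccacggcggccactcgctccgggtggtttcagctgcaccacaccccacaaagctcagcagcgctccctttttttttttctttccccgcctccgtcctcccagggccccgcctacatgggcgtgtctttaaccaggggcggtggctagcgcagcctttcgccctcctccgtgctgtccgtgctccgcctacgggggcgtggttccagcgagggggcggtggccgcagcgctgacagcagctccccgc
Pdk2: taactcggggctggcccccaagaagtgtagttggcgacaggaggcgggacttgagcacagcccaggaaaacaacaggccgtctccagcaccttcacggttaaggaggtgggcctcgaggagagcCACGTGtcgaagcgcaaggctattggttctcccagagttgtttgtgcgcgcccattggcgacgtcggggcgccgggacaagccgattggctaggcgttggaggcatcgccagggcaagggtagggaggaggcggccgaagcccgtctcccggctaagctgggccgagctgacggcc
Slc16a1: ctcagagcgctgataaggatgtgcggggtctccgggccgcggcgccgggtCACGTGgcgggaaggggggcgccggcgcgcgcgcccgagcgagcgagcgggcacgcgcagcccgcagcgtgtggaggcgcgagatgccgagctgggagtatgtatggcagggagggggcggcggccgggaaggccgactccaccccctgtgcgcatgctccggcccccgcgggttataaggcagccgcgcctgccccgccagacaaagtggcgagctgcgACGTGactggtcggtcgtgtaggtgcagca
Ldhb: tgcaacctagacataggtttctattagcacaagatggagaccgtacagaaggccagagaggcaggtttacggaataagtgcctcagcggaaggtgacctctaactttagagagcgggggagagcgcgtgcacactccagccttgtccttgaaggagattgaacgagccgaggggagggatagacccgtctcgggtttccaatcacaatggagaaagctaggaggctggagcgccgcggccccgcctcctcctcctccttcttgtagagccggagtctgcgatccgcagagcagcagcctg
The Pdk2 window held a single CACGTG, which is ACGTG read on both strands, and the Slc16a1 window held a CACGTG near its far end and a separate ACGTG within the first transcribed bases. The windows of Pdk1 and Ldhb held neither. Of the 34 members found in the promoter table (Slc2a3 was not), 18 or 52.9% held ACGTG at any of their listed starts, against 21.8% of 27025 genes with a promoter of the same length. CACGTG, which contains ACGTG, was found in 6 members or 17.6%, against 8.09% of those genes. Ldha held the most ACGTG matches of any member, with 5 counted over both strands. A CACGTG counts on each strand in this number, and Ldha held 2 of them. A match is a string of letters and not a measured binding site.

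The members were expressed at very uneven levels. Ldha, the muscle-type subunit of lactate dehydrogenase, was the most abundant member at a mean of 501 scaled FPKM, followed by Pkm2 at 248, Aldoa at 221, Gapdh at 154 and Eno1 at 123. FPKM are per length, so these levels can be set side by side. The next were Pfkp, Pgam1, Pgk1, Tpi1 and Gpi1, at 89.2 down to 51.0, and the first 10 together made up 84.3% to 90.4% of the summed level of the members in each library. Ldha was above every other member in each of the 10 libraries, while the ranges over libraries overlapped between all neighbours in this order among those 10. At the other end, the fructose bisphosphatase Fbp1, the neuronal enolase Eno2, the liver and red cell pyruvate kinase Pklr and the kinase Pdk4 stayed below the minimum for a test, with no value above 0.433 in any library. The members summed to 1579, 1828, 2406 and 1749 in KO DP, to 2040.0 and 2019 in KO SP and to 1653, 1641, 1707 and 1552 in WT SP.

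**Figure D1:**
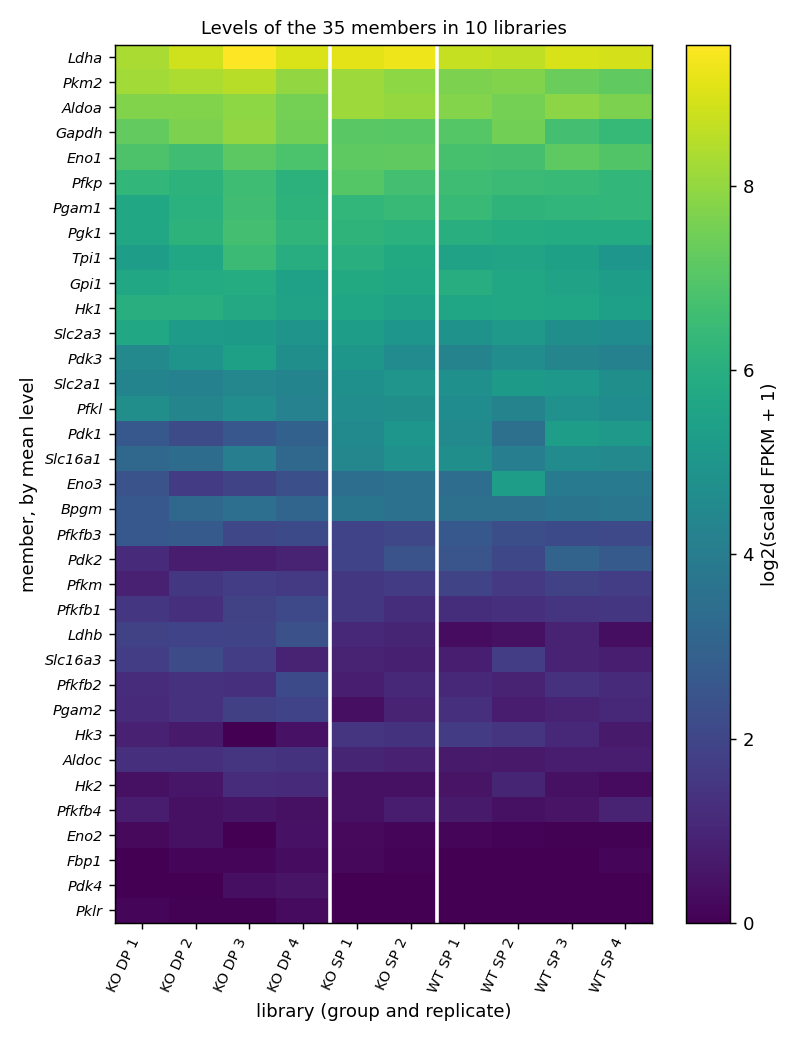
Levels of the 35 members in the 10 RNA libraries as log2(scaled FPKM + 1) in colour, members from the highest mean (Ldha, 501 scaled FPKM) at the top to the lowest at the bottom and libraries by group and replicate. The upper rows look alike in all groups, while the rows of Pdk1, Eno3, Slc16a1 and Pdk2 are darker in the 4 KO DP libraries and the row of Ldhb is brighter there.

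The comparison of KO DP with WT SP, which differ in CD4 and in genotype, found single transporters, isozymes and kinases that differed. Of 31 tested members, 5 were lower (Pdk1, Pdk2, Eno3, Slc16a1 and Slc2a1) and 3 higher (Ldhb, Pkm2 and Aldoc) in KO DP by limma with an adjusted p below 0.05, and 23 did not pass. These 25.8% stand beside a background of 17.8% of all 11288 genes tested (9.15% higher and 8.65% lower), and with 31 members the shares were not tested against each other. The median difference over the members was 0.11 on the log2 scale, against -0.03 over all genes tested. All differences and errors below are on the log2(scaled FPKM + 1) scale, which understates the change of low genes, and per-library values are scaled FPKM in replicate order.

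**Figure D2:**
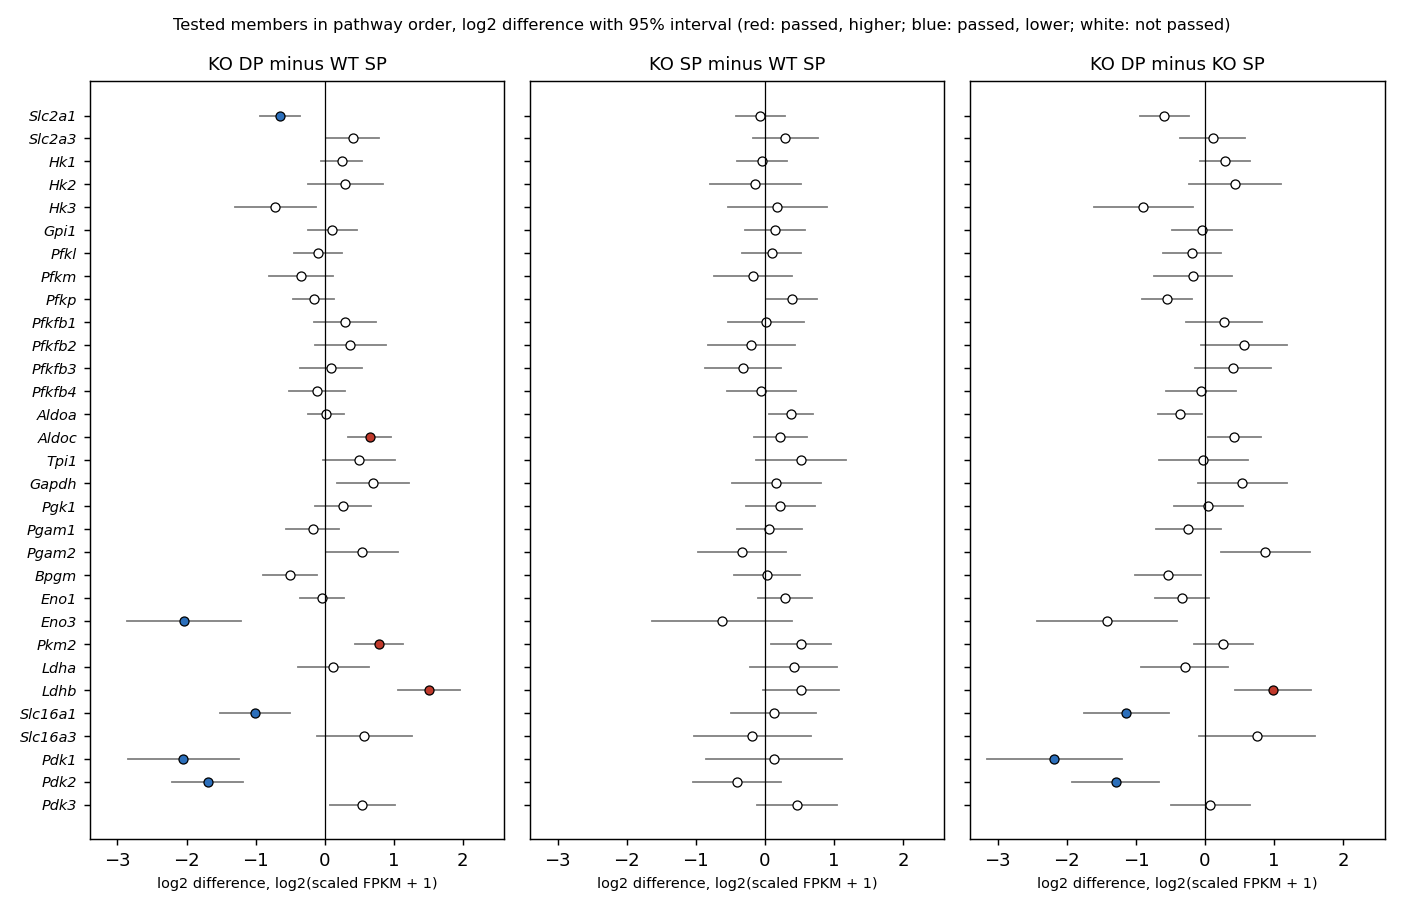
Differences of the 31 tested members in pathway order for the 3 comparisons, on the log2(scaled FPKM + 1) scale, with 95% intervals from limma; filled points passed the test. In KO DP against WT SP, 8 points are filled, from -2.05 for Pdk1 to 1.51 for Ldhb, in KO SP against WT SP none, and in KO DP against KO SP 4.

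A pair of pyruvate dehydrogenase kinases was lower in KO DP. Pdk1, a kinase that switches pyruvate dehydrogenase off, was at 5.15, 3.53, 4.95 and 6.70 in KO DP, at 22.1 and 30.8 in KO SP and at 22.8, 10.4, 38.3 and 33.8 in WT SP. Every KO DP library lay below every library of the other groups, and WT SP replicate 2 was the lowest of the rest. The difference to WT SP was -2.05 ± 0.36 (SE; limma, adjusted p = 0.00533), and within the title ranges it was -1.64 (34 to 37) and -2.45 (738 to 741). Pdk2, a second such kinase, was at 1.28, 0.684, 0.642 and 0.858 in KO DP, at 2.75 and 4.48 in KO SP and at 4.73, 3.24, 7.24 and 5.43 in WT SP. Again no KO DP library reached the lowest library of another group. Its difference to WT SP was -1.69 ± 0.23 (limma, adjusted p = 0.00153), and -1.33 and -2.06 within the ranges. Pdk3, the most abundant kinase of the family in KO DP, did not pass, at 21.5 to 42.2 in KO DP, 23.1 and 32.4 in KO SP and 17.1 to 24.5 in WT SP (adjusted p = 0.106). It passed with upper-quartile scaling (0.95, limma, adjusted p = 0.0332), which shifts the median of all genes from -0.03 to 0.35.

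The groups also stood apart in the makeup of the kinase family, which was described and not tested, and shares within a library do not depend on how libraries are scaled. Pdk3 made up 76.4% to 87.7% of the summed FPKM of the 4 kinases in KO DP, 39.5% and 56.6% in KO SP and 29.8% to 64.1% in WT SP. Pdk1 made up 10.3% to 19.8%, 38.6% and 52.8%, and 27.4% to 60.0% in the same order. The shares of KO DP lay outside those of both other groups for Pdk1, Pdk2 and Pdk3. A share shows unequal levels of the members and not which of them moved. Pdk3 lies on the X chromosome, so between the genotypes its share cannot be told apart from the sex of the source cells. KO DP and KO SP, the latter with 2 libraries, did not overlap in this share either. The part of sex in the share was not tested.

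Genes of lactate handling differed in both directions. Ldhb, the heart-type subunit that is usually linked to turning lactate into pyruvate, was at 2.58, 2.80, 2.90 and 4.21 in KO DP, at 1.13 and 0.986 in KO SP and at 0.239, 0.345, 0.950 and 0.291 in WT SP. The KO DP libraries all lay above the rest. The difference to WT SP was 1.51 ± 0.20 (limma, adjusted p = 0.00133), with 1.51 in both title ranges. Ldhb was nonetheless a minor subunit everywhere, with 0.391% to 0.814% of the summed Ldha and Ldhb in KO DP, 0.156% and 0.200% in KO SP and 0.0572% to 0.190% in WT SP. Ldha itself, at 317, 463, 738 and 513 in KO DP, 562 and 629.8 in KO SP, against 418, 389, 498 and 487 in WT SP, did not pass (0.12 ± 0.23). Its KO DP libraries spanned more than the whole range of the other groups.

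Slc16a1, encoding the lactate transporter Mct1, was at 8.32, 9.28, 16.1 and 8.30 in KO DP, at 20.1 and 27.2 in KO SP and at 25.7, 16.0, 23.2 and 21.5 in WT SP. KO DP replicate 3 and WT SP replicate 2 were nearly level, and the groups overlapped at those libraries only. The difference was -1.01 ± 0.23 (limma, adjusted p = 0.0159), and -1.13 and -0.89 within the ranges. The call was lost with upper-quartile scaling (-0.61, adjusted p = 0.153) and in titles 738 to 741 alone (adjusted p = 0.0859). Slc16a3, encoding the exporter Mct4, was at 2.34, 3.60, 2.31 and 0.863 in KO DP, 0.911 and 0.791 in KO SP, against 0.722, 2.36, 0.946 and 0.724 in WT SP and did not pass (adjusted p = 0.230). Slc16a3 made up 9.42% to 27.9% of the summed pair in KO DP, 2.82% and 4.33% in KO SP and 2.73% to 12.8% in WT SP, where replicate 2 alone reached into the KO DP range. Slc16a3 overlaps the gene Csnk1d, which was at 48.1 to 61.9, and in unstranded libraries reads of overlapping genes cannot be told apart.

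**Figure D3:**
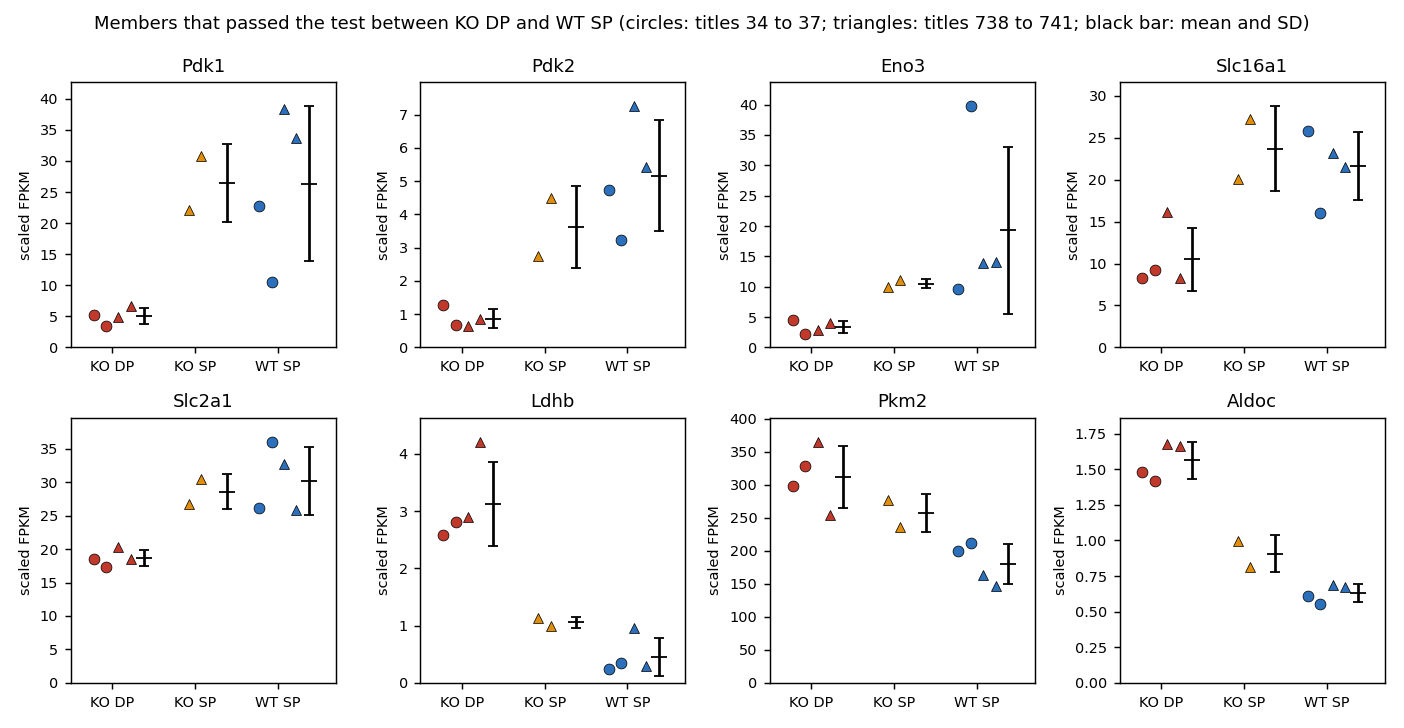
Scaled FPKM of the 8 members that passed the test between KO DP and WT SP, 1 point per library, circles for titles 34 to 37 and triangles for 738 to 741, with the mean and SD of each group as a black bar. Pdk1, Pdk2, Eno3 and Slc2a1 lie below and Ldhb, Pkm2 and Aldoc above all WT SP libraries in each KO DP library, and Slc16a1 overlaps at 16.1 against 16.0.

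Among the glucose transporters, Slc2a1 was at 18.5, 17.4, 20.2 and 18.6 in KO DP, at 26.8 and 30.4 in KO SP and at 26.2, 36.0, 32.8 and 25.8 in WT SP. The KO DP libraries were close together and all below the rest. The difference to WT SP was -0.65 ± 0.13 (limma, adjusted p = 0.00920), and -0.75 and -0.56 within the ranges. The call was lost without scaling (-1.04, adjusted p = 0.0586) and with upper-quartile scaling (-0.24, adjusted p = 0.416). Slc2a3, the high-affinity transporter, was at 49.6, 37.2, 36.0 and 29.5 in KO DP, 38.8 and 30.8 in KO SP, against 28.8, 33.8, 26.1 and 23.9 in WT SP and did not pass (0.41 ± 0.17, limma, adjusted p = 0.134). It passed with upper-quartile scaling (0.82, adjusted p = 0.0102) and with the title range as a factor (adjusted p = 0.0442). Its share of the pair was 61.4% to 72.8% in KO DP, 50.3% and 59.2% in KO SP and 44.4% to 52.4% in WT SP, so that the KO DP shares lay above all others.

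The hexokinases, which phosphorylate glucose, did not pass in KO DP against WT SP. Hk1 supplied 94.8% to 98.3% of their summed level in every library and was at 44.4 to 63.6 in KO DP, 42.6 and 47.5 in KO SP and 41.0 to 50.2 in WT SP. It passed with upper-quartile scaling (0.67, limma, adjusted p = 0.0101). Hk2, the inducible form of activated T cells, was low throughout, at 0.358, 0.50, 1.34 and 1.25 in KO DP, 0.350 and 0.334 in KO SP, against 0.432, 1.0, 0.342 and 0.226 in WT SP. In the title range 738 to 741 taken alone its difference was 0.84 (limma, adjusted p = 0.0102), against -0.25 in 34 to 37. The difference between those values did not pass (interaction, adjusted p = 0.237). The KO DP libraries of titles 738 to 741 are replicates 3 and 4. They stood apart in size factor and in olfactory receptor level (0.150 and 0.229 FPKM). The part of this in the low values of Hk2 was not tested. Hk3 was at 0 to 0.822 in KO DP, 1.61 and 1.69 in KO SP and 0.604 to 2.16 in WT SP, at -0.71 ± 0.26 (adjusted p = 0.0921). With the replicate number as a block Hk3 passed (adjusted p = 0.0447), and likewise with the title range as a factor (adjusted p = 0.0159). It overlaps Unc5a, at 1.02 to 11.4.

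Upper glycolysis from the isomerase to phosphofructokinase showed no member that passed. Gpi1, which makes fructose 6-phosphate, was at 49.5, 57.9, 58.9 and 42.6 in KO DP, 54.8 and 51.8 in KO SP, against 60.1, 51.4, 44.3 and 38.2 in WT SP. Pfkp, the platelet-type phosphofructokinase that sets the committed step, was at 78.0, 70.7, 95.1 and 69.5 in KO DP, 130.1 and 101 in KO SP, against 93.6, 88.2, 87.6 and 78.1 in WT SP. It made up 74.6% to 83.3% of the 3 phosphofructokinase genes, with Pfkl at 17.9 to 27.1 and Pfkm at 0.849 to 2.90 over all libraries. Of the bifunctional enzymes that set fructose 2,6-bisphosphate, the allosteric activator of phosphofructokinase, Pfkfb3 had the highest mean, at 2.75 to 5.57, and Pfkfb1, Pfkfb2 and Pfkfb4 lay between 0.329 and 3.40. In KO DP replicate 4 Pfkfb2, at 3.40, was above Pfkfb3, at 3.35. None of the 4 passed, with adjusted p from 0.288 to 0.774.

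Aldolase differed in its minor isozyme. Aldoc was at 1.48, 1.42, 1.68 and 1.67 in KO DP, at 0.999 and 0.814 in KO SP and at 0.607, 0.556, 0.689 and 0.675 in WT SP, with no overlap among the 3 groups. The difference to WT SP was 0.65 ± 0.14 (limma, adjusted p = 0.0135), and 0.63 and 0.67 within the ranges; without scaling it did not pass (0.45, adjusted p = 0.189). Aldoa, at 212, 208, 238 and 184 in KO DP, 278 and 262 in KO SP, against 218, 183, 231 and 199 in WT SP, carried the step and did not pass (0.02 ± 0.12). Aldoc was only 0.679% to 0.895% of the summed pair in KO DP, against 0.309% and 0.358% in KO SP and 0.278% to 0.338% in WT SP.

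The abundant enzymes of lower glycolysis spread widely among the KO DP libraries. Gapdh, which oxidises glyceraldehyde 3-phosphate, was at 149.8, 202, 254 and 181 in KO DP, 134 and 131 in KO SP, against 129, 178, 102 and 83.5 in WT SP. Its difference was 0.70 ± 0.23 and did not pass (limma, adjusted p = 0.0673); it passed with upper-quartile scaling (1.13, adjusted p = 0.0240), without WT SP replicate 2 (0.90, adjusted p = 0.0123) and in titles 738 to 741 alone (1.21, adjusted p = 0.0102), against 0.20 in titles 34 to 37. Triose phosphate isomerase, Tpi1, was at 38.1, 51.4, 89.9 and 59.7 in KO DP, 61.4 and 54.8 in KO SP, against 43.5, 46.0, 41.4 and 31.0 in WT SP. It differed by 1.01 in titles 738 to 741 (adjusted p = 0.0294 there alone) and by -0.01 in 34 to 37. The phosphoglycerate kinase Pgk1 was at 49.8, 70.6, 101 and 74.1 in KO DP, 72.5 and 66.4 in KO SP, against 63.0, 59.4, 57.5 and 57.9 in WT SP. In scaled FPKM, KO DP replicate 3 was the highest of its group for all of the 10 most abundant members. Replicate 1 was the lowest for 5 of them and replicate 4 for 4. This order depends on the scaling, with a size factor of 0.744 for replicate 3. In FPKM as deposited, replicate 3 was the highest of its group among these 10 for Ldha and Tpi1 only. Pkm2, for example, was then at 272 in replicate 3 and at 384 in replicate 2.

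The cell cycle genes spread among the KO DP libraries as well. The 15 listed cell cycle genes, among them Mki67, Top2a and Cdk1, summed to 516, 923, 1673 and 1089 in KO DP, to 698 and 347 in KO SP and to 350, 543, 195 and 194 in WT SP. KO DP replicate 3 was the highest library for this sum and for that of the members, both of scaled FPKM. KO DP replicate 1 and WT SP replicate 4 were the lowest of their groups for both sums, and KO SP replicate 1 was above replicate 2 for both. Other parts of the orders differed. KO DP replicate 4 was second for the cell cycle genes and behind replicate 2 for the members, and KO SP replicate 2 was below every KO DP library for the cell cycle genes and above KO DP replicates 1, 2 and 4 for the members. Of the 15, 12 were higher in KO DP than in WT SP by limma and none lower, with a median difference of 2.05; Rrm2 (2.32, adjusted p = 0.0149), Tyms (1.52, adjusted p = 0.0126), Aurkb (2.05, adjusted p = 0.0189) and Cdk1 (2.07, adjusted p = 0.0198) led by p. The title ranges differed widely, with a median over the 15 of 0.68 in titles 34 to 37 and of 3.23 in 738 to 741. The part of cell division in the levels of the members was not tested.

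The phosphoglycerate mutases and enolases follow in the pathway. Pgam1 was at 50.6, 66.3, 96.1 and 70.2 in KO DP, 78.3 and 85.4 in KO SP, against 86.5, 72.3, 75.8 and 78.1 in WT SP and did not pass. Pgam2, the muscle mutase, was at 1.20, 1.54, 2.51 and 2.81 in KO DP, 0.323 and 0.947 in KO SP, against 1.48, 0.712, 0.891 and 1.08 in WT SP. It did not pass against WT SP (0.54 ± 0.23, limma, adjusted p = 0.145) or against KO SP (0.87 ± 0.29, adjusted p = 0.104), where the groups did not overlap. In titles 738 to 741 alone it passed in both (0.88, limma, adjusted p = 0.0364, and 1.19, adjusted p = 0.0257). KO DP is represented there by replicates 3 and 4, which stood apart in size factor and olfactory receptor level. The part of this in Pgam2 was not tested. Bpgm, which makes the red cell effector 2,3-bisphosphoglycerate, was at 5.21 to 10.3 in KO DP, 11.1 and 12.1 in KO SP and 10.4 to 12.5 in WT SP; its groups KO DP and WT SP did not overlap, yet it did not pass (-0.50 ± 0.18, limma, adjusted p = 0.0798). It passed with TMM scaling, a trimmed mean of log ratios (-0.59, adjusted p = 0.0425), with the title range as a factor (adjusted p = 0.0346) and without KO DP replicate 3 (-0.63, adjusted p = 0.0464). Groups that do not overlap were found for 8 members in this comparison, against 19.6% of all genes tested. Eno1, the main enolase, was at 116, 95.7, 139 and 112 in KO DP, 141 and 148 in KO SP, against 108, 104, 144 and 121 in WT SP and did not pass. Eno3, the muscle enolase, was at 4.48, 2.20, 2.90 and 3.96 in KO DP, at 9.99 and 11.0 in KO SP and at 9.63, 39.7, 13.9 and 14.0 in WT SP. Its KO DP libraries lay below the rest, and WT SP replicate 2 stood far above its group. The difference to WT SP was -2.04 ± 0.37 (limma, adjusted p = 0.00632), and -2.31 and -1.76 within the ranges; without KO DP replicates 3 and 4 together it did not pass (-2.07, adjusted p = 0.0639). Eno3 is uncertain because it overlaps Pfn1, a profilin gene at 1331 to 2424 in KO DP, 1602 and 2093 in KO SP and 1546 to 2656 in WT SP. The highest library of Pfn1 was WT SP replicate 2, as for Eno3, and the next was KO DP replicate 2, where Eno3 was lowest.

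Pyruvate kinase, which makes pyruvate in the last step of glycolysis, was higher in KO DP. Its Pkm2 row, which does not separate the M1 and M2 isoforms of the gene, was at 298, 329, 365 and 254 in KO DP, at 277 and 237 in KO SP and at 199.9, 211, 164 and 147 in WT SP. All 4 KO DP libraries and both KO SP libraries lay above all WT SP libraries. The difference of KO DP to WT SP was 0.79 ± 0.16 (limma, adjusted p = 0.00967), and 0.60 and 0.97 within the ranges; without scaling it did not pass (0.38, adjusted p = 0.478). All 8 members that passed kept their direction under every scaling tried, and titles 34 to 37 alone, with 2 libraries per group, gave each the same direction with none passing. Reads of Gapdh, Pgk1, Tpi1, Ldha, Pgam1, Eno1 and Aldoa may in part be assigned to processed pseudogenes, which these families have in the mouse genome.

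**Figure D4:**
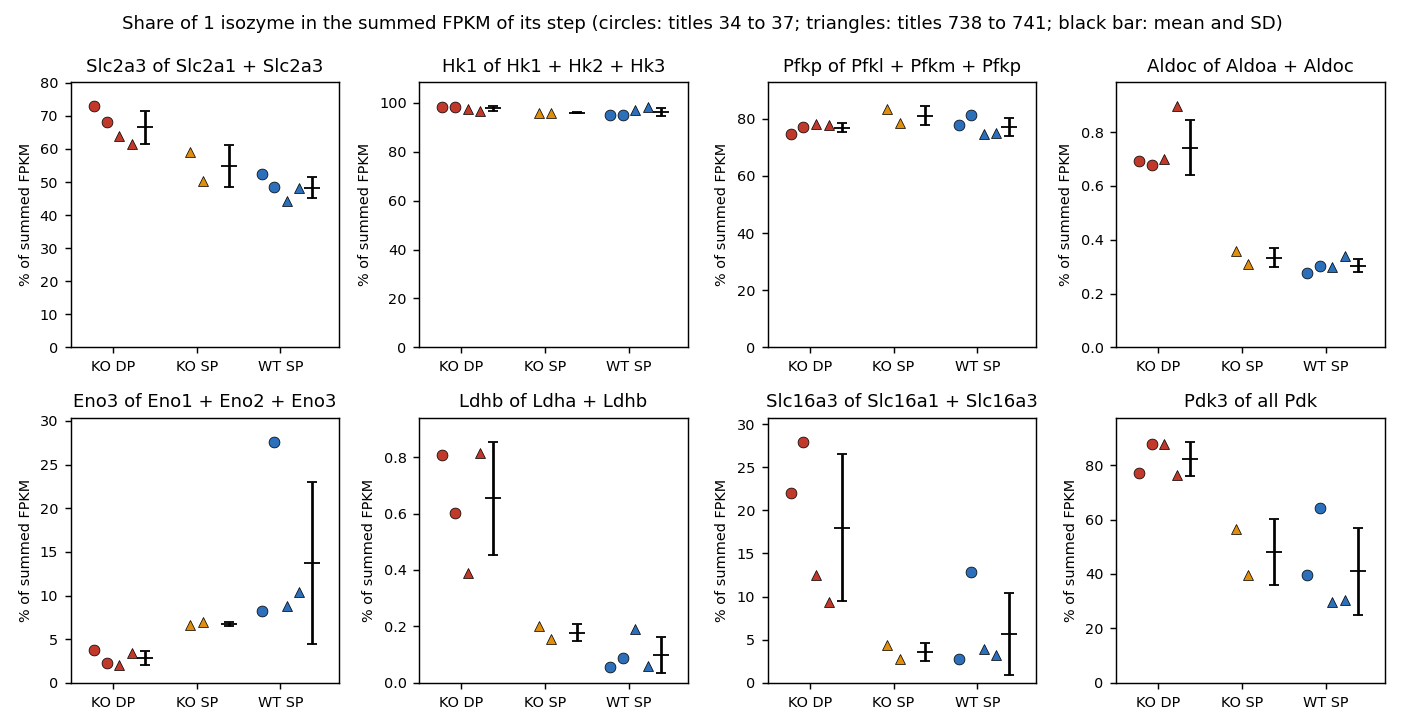
Share of 1 isozyme or transporter in the summed FPKM of its step, in percent, 1 point per library (circles for titles 34 to 37, triangles for 738 to 741), with the mean and SD of each group as a black bar. The shares of Hk1 and Pfkp overlap between KO DP and WT SP but not between KO DP and KO SP, whereas in KO DP the shares of Slc2a3, Aldoc, Ldhb and Pdk3 lie above and that of Eno3 below those of all WT SP libraries.

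Between KO SP and WT SP, which both lack CD4 and differ in genotype, none of the 31 members passed by limma. Of all genes tested 0.177% did (0.133% higher and 0.0443% lower), or 20 of 11288. An unadjusted p below 0.05 was found for 3 members (Pkm2, Aldoa and Pfkp) and for 1477 of the 11288 genes. The smallest adjusted p of a member was 0.369. Pkm2 was 0.52 ± 0.19 and Aldoa 0.38 ± 0.14 above WT SP. For Pdk1 the difference was 0.13 with a 95% interval from -0.85 to 1.11, and for Slc16a1 0.13 with an interval from -0.49 to 0.75. Both KO SP libraries come from titles 738 to 741, and within that range the differences were -0.45 for Pdk1, 0.07 for Slc16a1, 0.72 for Pkm2 and 0.33 for Aldoa, so that the direction of Pdk1 turned. For Ldhb it was 0.52 with an interval from -0.03 to 1.07, and 0.37 within the range. The groups did not overlap for 9 members, where 29.3% of all genes tested did not overlap. With 2 KO SP libraries these intervals are wide, and a p above the threshold does not show that the groups were alike.

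KO DP and KO SP, which share the knockout and differ in CD4, differed in 4 members. Pdk1 (-2.18 ± 0.44, limma, adjusted p = 0.0223), Pdk2 (-1.29 ± 0.28, adjusted p = 0.0311) and Slc16a1 (-1.14 ± 0.28, adjusted p = 0.0447) were lower in KO DP, and Ldhb was higher (0.99 ± 0.24, adjusted p = 0.0472). They make up 12.9% of the 31 tested members, beside a background of 5.83% of all genes tested (2.41% higher and 3.42% lower). Their per-library values, given above, do not overlap between KO DP and KO SP. Groups that did not overlap were found for 17 members, against 40.1% of all genes tested. Slc2a1 (-0.59 ± 0.16, adjusted p = 0.0604), Pfkp (-0.56 ± 0.16, adjusted p = 0.0753) and Eno3 (-1.42 ± 0.45, adjusted p = 0.0966) followed without passing. Slc2a1 and Pfkp passed with TMM scaling (limma, adjusted p = 0.0373 and 0.0493) and with the replicate number as a block (adjusted p = 0.0384 and 0.0363). Eno3 passed in titles 738 to 741 alone (adjusted p = 0.00946). Slc2a1 and Eno3 also passed without WT SP replicate 2 (adjusted p = 0.0274 and 0.00900). In most other settings these members did not pass. Leaving out either KO SP library, or KO DP replicate 2, ended all 4 calls, with adjusted p from 0.0608 (Pdk1 without KO DP replicate 2) to 0.329 (Slc16a1 without KO SP replicate 2). KO DP replicates 3 and 4 and KO SP replicates 1 and 2 carry the same title numbers, 738 and 739. With the title range as a factor Pdk2 (limma, adjusted p = 0.0529) and Slc16a1 (adjusted p = 0.0757) did not pass. With a block on those numbers, fitted on these 4 libraries, none of the 4 members did (adjusted p from 0.0591 to 0.212). Without that block, in titles 738 to 741 with WT SP in the fit, the 4 differences were the same. Pdk1 (limma, adjusted p = 0.00750), Pdk2 (adjusted p = 0.0233) and Ldhb (adjusted p = 0.0412) passed there, and Slc16a1 (adjusted p = 0.0953) did not. In the same comparison the cell cycle, macrophage and red cell lists lay higher in KO DP over all libraries, with medians of 1.11, 1.70 and 1.93. No gene of these lists passed. Both KO SP libraries come from the higher title range. Within it the differences of tested cell cycle genes ran from 0.41 (Mcm2) to 2.07 (Ccna2). Those of tested macrophage genes ran from -0.06 (C1qb) to 0.85 (Hmox1). Those of tested red cell genes ran from -1.61 (Hba-a1) to 0.41 (Hba-a2). The part of these lists in the 4 calls was not tested. The comparison shares KO DP with the first and KO SP with the second, so the 3 are not independent.

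Single regulators of glycolysis differed between KO DP and WT SP. Of 19 tested genes of that list, 2 were higher (Hif1a and Egln3), 3 lower (Myc, Slc7a5 and Txnip) and 14 did not pass by limma, beside 17.8% of all genes tested that passed, and the median over the list was -0.14. Myc, a transcriptional driver of glycolysis in activated T cells, was at 24.0, 17.6, 11.7 and 16.4 in KO DP, at 59.5 and 64.9 in KO SP and at 93.9, 50.8, 101 and 95.5 in WT SP. Hif1a, the oxygen-regulated subunit of the hypoxia factor, was at 63.4, 76.9, 71.9 and 54.4 in KO DP, at 31.2 and 28.1 in KO SP and at 23.6, 45.7, 23.2 and 26.2 in WT SP. For both genes KO DP stood apart from both other groups with no overlap. The differences to WT SP were -2.22 ± 0.25 for Myc (limma, adjusted p = 0.000573) and 1.19 ± 0.21 for Hif1a (adjusted p = 0.00582). Against KO SP they were -1.82 (adjusted p = 0.0118) and 1.13 (adjusted p = 0.0367).

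Egln3, a prolyl hydroxylase that marks Hif1a for destruction and is itself a target of the factor, was at 2.18, 3.31, 1.45 and 1.89 in KO DP, 0.642 and 0.403 in KO SP, against 0.473, 0.0168, 0.0633 and 0.230 in WT SP (1.41 ± 0.22 against WT SP, limma, adjusted p = 0.00283). Txnip, an inhibitor of glucose uptake that is induced by glucose through Mlx factors, was at 133, 109, 84.7 and 80.4 in KO DP, 130.1 and 182 in KO SP, against 240.3, 171, 212 and 195 in WT SP (-1.02 ± 0.19, adjusted p = 0.00731). Slc7a5, a subunit of the large amino acid transporter that sustains Myc in T cells, was at 6.97, 8.39, 7.62 and 3.99 in KO DP, 9.50 and 13.8 in KO SP, against 19.9, 17.4, 17.7 and 16.0 in WT SP (-1.31 ± 0.21, adjusted p = 0.00323). No KO DP library reached the WT SP range of any of these 3 genes, and none of the 3 passed between KO SP and WT SP.

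**Figure D5:**
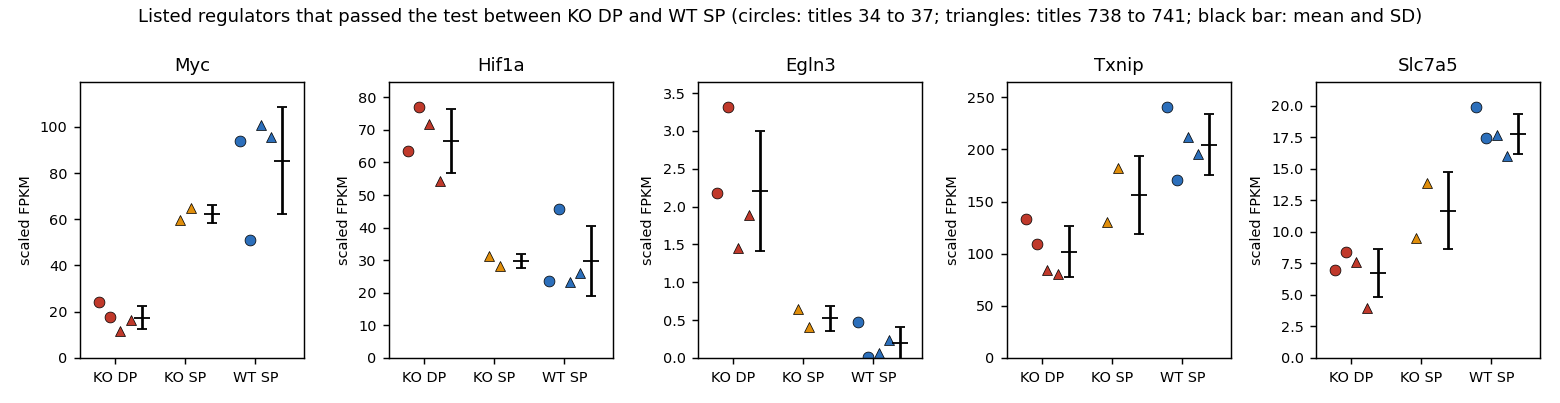
Scaled FPKM of the 5 listed regulators that passed the test between KO DP and WT SP, 1 point per library (circles for titles 34 to 37, triangles for 738 to 741), with the mean and SD of each group as a black bar. Myc (11.7 to 24.0), Txnip and Slc7a5 lie lower and Hif1a (54.4 to 76.9) and Egln3 higher in KO DP than in every WT SP library.

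Branches and neighbours of the pathway held single genes that passed between KO DP and WT SP, where 17.8% of all genes tested did. None of 9 pentose phosphate genes and none of 10 genes of pyruvate entry into the mitochondrion (carriers, pyruvate dehydrogenase subunits and phosphatases) passed by limma, with medians of -0.02 each. Of 6 genes of serine synthesis and the folate branch, Shmt2, the mitochondrial serine hydroxymethyltransferase, was lower (-0.83 ± 0.18, adjusted p = 0.0154) at 25.8 to 39.0 in KO DP against 40.1 to 64.6 in WT SP and 60.8 and 66.5 in KO SP. Of 8 tested hypoxia targets outside the pathway, Ndrg1 (1.29 ± 0.29, adjusted p = 0.0156) and Ero1l, an oxidase of the endoplasmic reticulum (0.43 ± 0.12, adjusted p = 0.0400), were higher, none was lower, and the median was -0.22. Of 7 accessory genes, the ADP-dependent glucokinase Adpgk was lower (-1.66 ± 0.27, adjusted p = 0.00388), at 4.15 to 8.23 in KO DP, 9.70 and 13.7 in KO SP and 14.6 to 28.6 in WT SP, and the transporter Slc2a8 was higher (0.86 ± 0.23, adjusted p = 0.0316). Bsg, the chaperone of Mct1 and Mct4, was at 107 to 124 in KO DP, 127 and 145 in KO SP and 107 to 128 in WT SP and did not pass.

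Markers of other cells were looked at because red cells and macrophages express glycolysis genes of their own. The 7 red cell genes summed to 1.77 to 1038 in KO DP, 2.21 and 46.9 in KO SP and 4.99 to 902 in WT SP, where all values above 400 came from titles 34 to 37 and 0 to 4 of the 7 genes were listed at 0 in a library. The 10 macrophage genes summed to 30.2 to 181, 17.1 and 25.4, and 14.4 to 145 in the same order, with none listed at 0. No gene of the red cell, macrophage, B cell or neutrophil lists passed in any of the 3 comparisons. Between KO DP and KO SP, however, all 9 tested macrophage genes were at higher means in KO DP over all libraries. Of these, 4 had no overlap, where 40.1% of all genes tested had none. In titles 738 to 741 the differences of the 9 ran from -0.06 (C1qb) to 0.85 (Hmox1). All 5 tested red cell genes were also at higher means in KO DP over all libraries. In titles 738 to 741, the only range with KO SP, Hba-a1 (-1.61) and Hbb-b2 (-0.74) were lower in KO DP. Hba-a2 (0.41) and Alas2 (0.09) were higher there, and Hbb-b1 was at 0 in both groups. The medians of KO SP against WT SP over all libraries were -1.41 for macrophage and -2.21 for red cell genes. Within titles 738 to 741 the macrophage genes summed to 25.4 and 17.1 in KO SP and to 14.4 and 28.3 in WT SP. The red cell genes summed to 46.9 and 2.21 against 4.99 and 12.8 there. Their part in the levels of the members was not tested. In bulk RNA a smaller share of cells with a transcript and less transcript per cell cannot be told apart.

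H3K9me3 peaks lay near some of the members in the cultured CD8 T cells, and the shares were not tested against those of all symbols. Within 10 kb of a start, as the authors annotated each peak to its nearest gene on mm9, 4 of 35 members had a peak in WT replicate 1, 3 in WT replicate 2, 4 in KO replicate 1 and 8 in KO replicate 2. These are 11.4%, 8.57%, 11.4% and 22.9% of the members, against 26.2%, 12.6%, 22.2% and 26.4% of all symbols of the RNA table, among which a gene spelled differently in the peak lists counts as having none. Of the members, 15 were the nearest gene of a peak at any distance in any list, or 42.9%, against 61.1% of all symbols. The lists held 85960, 23304, 111149 and 154997 peaks, so presence in a list depends on how much was called.

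Pdk1 and Pfkl had such a peak in all 4 lists. At Pdk1 a peak lay 6564 to 6690 bases before the start, at chr2:71704177-71705005 in WT replicate 2, at chr2:71704257-71705178 in KO replicate 1 and at chr2:71704319-71704951 in KO replicate 2 (mm9, intergenic). A separate peak closer to the start lay at chr2:71708879-71709379 in WT replicate 1, 2152 bases before it, and at chr2:71708786-71709286 in KO replicate 1, 2245 bases before it. At Pfkl the peaks lay 4878 to 5261 bases before the start, in both genotypes. These cultured cells are not the cells of the RNA libraries, and scores of different lists were not compared. Hk2 had a peak within 10 kb in WT replicate 1 and both KO lists, Hk1 in WT replicate 2 and KO replicate 2, Pgam2 in both KO lists, Pdk3 in WT replicate 1 and Bpgm, Fbp1 and Pfkm in KO replicate 2. The other 26 members, Ldha, Ldhb, Pkm2, Slc16a1, Slc2a1 and Pdk2 among them, had none within 10 kb in any list.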

How the data were processed

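Per the labels' protocols, SMART-Seq v4 amplified no more than 5 ng of RNA per library before Nextera tagmentation, which marks no strand. The authors deposited FPKM; the submitters' processing notes name TopHat, Cufflinks and mm9. The sources used here give no versions, annotation or filters. The authors' deposited peak lists, from Bowtie and HOMER per the same notes, hold a score and a distance to the nearest start per peak; the score was used only as a filter within a list. Repeated lines of a symbol (466) were summed, and 16 columns of the table were not used.

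FPKM were divided by median-ratio size factors. Genes with a mean of at least 0.5 were tested with limma 3.58.1 (R 4.3.3) on log2(value + 1) with a trended prior, 1 spread shared by all 10 libraries and Benjamini-Hochberg adjustment over 11288 genes at 0.05. On simulated KO DP and WT SP values of 11288 genes, 73% of changes of 1 and 91% of changes of 2 log2 units were found. The changes were planted in 200 genes of higher mean level than Pdk2, Ldhb and Aldoc, so these percentages do not cover such low members. Relative depth came from the commonest ratio of values below 0.5 between libraries, from which 31.9% to 45.9% of values were ratios of whole numbers up to 5 within 0.5%. Named were all members, the values in each library for those that passed or had a mean of at least 50, up to 4 genes that passed per other list and comparison by smallest p, and Ehmt2, Myc, Hif1a and Txnip; Xist, Ddx3y, Bsg and genes overlapping a member were named after their values were seen. The members and lists were chosen with earlier results of these data known. KO DP and WT SP share replicate numbers 1 to 4 in the descriptions. Deviations from the group means of same-numbered libraries correlated at 0.151, 0.302, 0.101 and 0.135. Differently numbered libraries of the same title range correlated at 0.0745, 0.182, 0.198 and 0.263 for KO DP replicates 1 to 4. The numbers were therefore not shown to pair libraries beyond the title range, and a block on them was only an alternative. Alternatives changed the scaling (none, upper quartile, and an unweighted trimmed mean of log ratios, TMM), pseudocount, filter, block, title range and libraries.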

Additional observations from a re-analysis of the deposited data

Results flagged for a closer look

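In 2 of the 62 groups of 4 libraries checked (31 members, each in KO DP and WT SP), a single library lay far from the others, where chance gives about 1 group in 20. For Slc16a1 it was KO DP replicate 3, at 16.1 scaled FPKM against 8.30 to 9.28 in the other 3, and its gap made up 0.834 of the range. Without that library KO DP was still lower than WT SP (-1.21, limma, adjusted p = 0.00511). For Pfkfb2, a bifunctional enzyme of fructose 2,6-bisphosphate, it was KO DP replicate 4, at 3.40 against 1.29 to 1.55, with a gap of 0.835 of the range. Pfkfb2 overlaps Yod1, which was also highest in that library, at 4.13.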

How the results depend on the processing

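For KO DP against WT SP, 2009 genes, 3 higher members and 5 lower members passed. Without scaling, which shifts the median of all genes to -0.38, these were 881 (319 higher and 562 lower), 1 and 4. Upper-quartile scaling, which shifts it to 0.35, gave 7 higher and 3 lower members and moved the genes from 1033 higher and 976 lower to 2111 and 255; TMM (-0.11) gave 868 and 1163. Testing only means of at least 2 FPKM, which drops Ldhb and Aldoc, left 1 higher member. The title range as a factor gave 3113 genes, leaving out KO DP replicates 3 and 4 together 875, titles 34 to 37 alone 51 genes and 0 members in either direction, and titles 738 to 741 alone 3327 genes, 7 higher and 4 lower members, without Slc16a1. Leaving out single libraries gave 1119 to 2732 genes, 3 to 4 higher and 5 to 6 lower members; the count rose without WT SP replicate 2 (2732) and fell furthest without KO DP replicate 2 (1339) or 3 (1214) or WT SP replicate 1 (1314), 3 (1119) or 4 (1168); none ended any of the 8 calls. The interaction with the title range passed for 37 genes (1599 unadjusted) and 0 members.

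For KO SP against WT SP, the 20 genes became 13 without scaling, 55 in titles 738 to 741 alone and 12 to 29 without single libraries (12 without KO DP replicate 2 or KO SP replicate 1), with 0 members in each.

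For KO DP against KO SP, the 658 genes, 1 higher and 3 lower member became 231 (47 higher and 184 lower), 0 and 2 without scaling (median of all genes -0.43). With upper-quartile scaling (0.36) 0 members passed in either direction and the genes went from 272 higher and 386 lower to 480 and 78, and with TMM (210 and 579) 5 members were lower. No higher member was left with a pseudocount of 0.1 or a mean of at least 2 FPKM. No filter gave 370 genes, 0 higher and 1 lower member, leaving out KO DP replicates 3 and 4 together 0 and 1, and titles 738 to 741 alone 1920 genes and 3 higher members. Leaving out single libraries gave 56 to 1318 genes, 0 to 1 higher and 0 to 5 lower members. The genes were 281 and 431 without KO DP replicate 2 or 4, 64 and 56 without KO SP replicate 1 or 2 and 1318 without WT SP replicate 2; of the 4 calls, KO DP replicate 1 ended Ldhb and Slc16a1, replicate 3 Ldhb, Pdk1 and Pdk2, replicate 4 Ldhb, Pdk2 and Slc16a1, WT SP replicate 1 or 4 Ldhb and Slc16a1, and replicate 3 Slc16a1.

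With the replicate block on the description number, 2212 genes, 3 higher and 6 lower members passed for KO DP against WT SP, which ended no call. The replicate numbers were not shown to pair libraries in any comparison. The block gave 1383 genes and 0 members for KO SP against WT SP. For KO DP against KO SP it gave 2618 genes, 1 higher and 6 lower members. Ldhb was lost there (0.84, limma, adjusted p = 0.0605) and Pfkfb3 gained (0.65, adjusted p = 0.0487). A block on title numbers 738 and 739 gave 14 genes and 0 members in either direction for KO DP against KO SP. No call of a member changed direction, whereas several differences that did not pass over all libraries turned with the title range, among them Hk2 in KO DP against WT SP, from 0.84 in one to -0.25 in the other, and Pdk1 in KO SP against WT SP, from 0.13 over all libraries to -0.45 in titles 738 to 741; the causes were not tested. Depth limits low members most: the values of Ldhb, Aldoc and Pdk2 lie near the pseudocount, and their read counts are unknown.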
